A study of Caenorhabditis elegans with 35 samples.

Results

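The flp genes of Caenorhabditis elegans encode FMRFamide-like peptides, a large family of neuropeptides. A locus was counted as a member when its name, or 1 of its comma-separated names, was flp- followed by a number, which gave 31 of the 37555 loci. RNA came from whole larvae of the L2/L2D stage in 7 genotypes with 5 libraries each, 35 in all. The strains were set-4(dp268);eak-7;akt-1, then set-4(n4600);eak-7;akt-1, then eak-7;akt-1 dpy-21, then daf-16;eak-7;akt-1, then eak-7;akt-1;daf-12, the double mutant eak-7;akt-1, and wild type. The first 5 strains therefore carry the eak-7 and akt-1 mutations of their comparator in addition to a further mutation, and are called suppressor strains below. The study reports that eak-7;akt-1 animals arrest as dauers, which requires DAF-16/FoxO and is suppressed by dpy-21 or set-4 mutations. It names DAF-12 as another factor that controls this arrest. The study's methods give mu86 as the daf-16 allele, and the alleles of eak-7, akt-1, daf-12 and dpy-21 in the profiled strains are not given in the sources used here. Eggs from over 200 adults, laid at 20°C within 6 h, were moved to 25°C for 24 h, so each library is a pool of animals. The study calls the libraries of a genotype biological replicates. Nothing in the labels says that replicates 6 to 10 came from separate cultures, and p-values measure the spread between these libraries.

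FMRFamide-like peptides are cut from larger precursors in neurons, amidated at the C terminus, packed into dense core vesicles and released to act mainly on G protein-coupled receptors. The dauer larva is an arrested alternative to the third larval stage, entered from the L2d stage under crowding, starvation or heat, and the decision is made through sensory neurons, insulin-like signaling and steroid hormone signaling. AKT-1 and EAK-7 act in parallel to restrain DAF-16/FoxO, the transcription factor downstream of the insulin receptor, and DAF-12 is the nuclear receptor of the steroid pathway. DPY-21 is a dosage compensation protein that acts on the X chromosomes, and SET-4 is a histone H4 lysine methyltransferase. The comparisons ask whether expression of the neuropeptide genes differed between eak-7;akt-1 and wild type animals, or between each suppressor strain and eak-7;akt-1. In whole larvae, fewer neurons and less RNA per neuron cannot be told apart.

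In the deposited table the libraries were shallow, with 34193 to 88068 recovered fragments each (median 56780). The numbers of reads sequenced were not examined. The flp family was close to the limit of what the table could show. All 31 loci together had 457 of 2025991 fragments, or 0.0226%, and 140 of these were flp-26 in 1 library. Without flp-26 the family had 313 fragments, or 0.0154%. A count of 3 fragments over the 5 libraries of a genotype corresponds to between 9.73 and 11.2 CPM (fragments scaled to a library of 1000000) and was used as the floor, for counting error only, since the fragments carry no molecular identifiers. The first principal component divided the libraries into 26 and 9, and the 9 included 2 libraries each of eak-7;akt-1 dpy-21 larvae, eak-7;akt-1 larvae and wild type, 1 of set-4(n4600);eak-7;akt-1 larvae, 1 of daf-16;eak-7;akt-1 larvae and 1 of eak-7;akt-1;daf-12 larvae. Results that rest on few libraries are given below also for the 26. The genes mutated in these strains could not check the labels, since set-4, akt-1 and daf-16 had 1, 4 and 9 fragments over all libraries, daf-12 had 21, dpy-21 had 0, and eak-7 shared a locus of 3 fragments with other genes.

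Of the 31 loci, 12 had a value above 0 in at least 5 libraries and 0 reached 5 scaled counts in at least 5 libraries, the filter of the main fit. The 12 were flp-3, flp-6, flp-7, flp-11, flp-16, flp-17, flp-18, flp-20, flp-21, flp-22, flp-26 and flp-28. Another 7 had between 1 and 5 fragments in all: flp-1, flp-2, flp-10, flp-13, flp-15, flp-19 and flp-33. They were not tested one by one, but their fragments are part of the family totals and sums. The remaining 12, flp-4, flp-5, flp-8, flp-9, flp-12, flp-14, flp-23, flp-24, flp-25, flp-27, flp-32 and flp-34, were listed at 0 in every library, which at this depth does not show that they were silent. Among the undetected or barely detected genes were peptide genes with well studied roles, such as flp-13, which acts in sleep after cellular stress, and flp-1, which acts in locomotion.

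The family was compared with other loci of like transcript length, since the share of loci with fragments differed with length. Among other loci of 1 coding gene, 25.9% of those in the length bin that ends at 500 nt were above 0 in at least 5 libraries, and 10.7% of those above 800 and up to 1000 nt. The spliced transcripts of the 31 genes were 422 to 973 nt long (median 633 nt), with a median of 658 nt for the 12 measured and 589 nt for the others. The measured share was 38.7% of flp loci, against 15.2% of 3353 other loci of 1 coding gene in the same length range and 12.2% of all loci. The sets are not alike, since the 3353 loci carry 1 name each. Of the 31 flp loci 4 also carry another name, among them the measured loci of flp-7 and flp-17. Of those 3353 loci 134, or 4%, passed the main filter, which no flp locus did. Except for flp-26, no member had more than 5 fragments in any library.

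**Figure D1:**
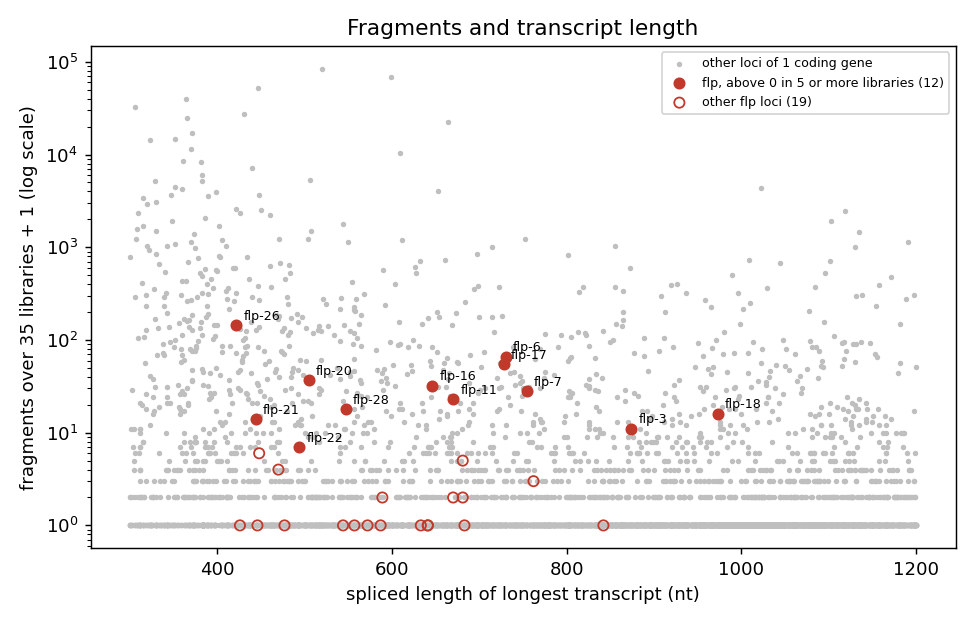
Fragments over all 35 libraries plus 1 (log axis) against spliced transcript length in nt, with 1 point per locus. The 12 measured flp loci (filled) span 422 to 973 nt and all except flp-26, which had 140 of its 144 fragments in 1 library, lie at or below 65 fragments, while many other short loci (grey) lie far higher.

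By position, 13 of the 31 genes (41.9%) are on the X chromosome, which holds 13.7% of the protein-coding genes of the WBcel235 annotation. The X-linked genes were 7 of the 12 measured, namely flp-3, flp-7, flp-11, flp-18, flp-20, flp-26 and flp-28. The autosomal ones were flp-6 and flp-21 on chromosome V, flp-16 on II, flp-17 on IV and flp-22 on I. In WBcel235, flp-6 is at V 9471975 to 9473792 on the forward strand with 5 exons, flp-17 at IV 17190204 to 17191891 on the reverse strand with 3 exons, and flp-20 at X 9349276 to 9349894 on the reverse strand with 3 exons. flp-18 spans X 3012182 to 3018555 on the reverse strand, and flp-26 spans X 7029136 to 7029640 on the forward strand. Whether reads were counted by strand is not given in the sources used here, so neighbours that overlap were looked up. flp-3 and flp-28 lie inside W07E11.1 on the opposite strand. flp-3 had 10 fragments in all, flp-28 had 17 and W07E11.1 had 6, and the part of overlapping genes in these counts was not tested. flp-11 overlaps the end of tmem-135, whose locus had 14 fragments, and flp-16 overlaps the end of romo-1. flp-17 overlaps 5 annotated piRNAs, 1 of which shares its locus name, and flp-7 shares its locus name with F49E10.2.

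In CPM per kilobase, averaged over the 35 libraries, the highest levels after flp-26 were those of flp-6 (44.0), flp-17 (38.2), flp-20 (36.8) and flp-16 (25.1). They were followed by flp-7 (18.2), flp-11 (16.7), flp-28 (15.9) and flp-21 (15.6). The lowest levels were those of flp-18 (7.84), flp-22 (6.28) and flp-3 (5.57). flp-26 had 112 on this scale, which fell to 4.49 without 1 library and put it last of the 12. The order of neighbours is not resolved, since the levels of the members other than flp-26 rest on between 6 and 65 fragments each, and that of flp-26 without the 1 library rests on 4.

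flp-6, a peptide gene of the AFD thermosensory neurons with a role in lifespan at warm temperature, was the most widely detected member, with 65 fragments in 29 libraries. In replicates 6 to 10 it had 1, 2, 0, 4 and 3 fragments in daf-16;eak-7;akt-1 larvae, 4, 0, 3, 0 and 2 in eak-7;akt-1;daf-12, and 1, 2, 0, 3 and 2 in eak-7;akt-1 dpy-21. It had 1, 1, 1, 3 and 0 in larvae of set-4(n4600);eak-7;akt-1, then 3, 1, 1, 1 and 4 in larvae of set-4(dp268);eak-7;akt-1, against 2, 2, 0, 5 and 2 in eak-7;akt-1 and 3, 1, 3, 3 and 1 in wild type. All 7 genotypes overlapped, and no genotype was without flp-6. The level was 40.8 ± 28.1 CPM in eak-7;akt-1 larvae and 36.9 ± 11.6 in wild type (SD, n = 5 each), and the ratio of their pooled CPM was 1.05, with an exact interval of 0.414 to 2.68 (95%, Clopper-Pearson, counting error only). The 5 suppressor strains had ratios to eak-7;akt-1 between 0.504 and 0.839, each with an interval that included 1. These intervals are wide, and a 2-fold difference in flp-6 lies inside every one of them in at least 1 direction.

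flp-17 encodes peptides of the BAG neurons, which sense carbon dioxide and oxygen, and its peptides act through the receptor EGL-6 to inhibit egg laying. Over replicates 6 to 10 it had 0, 0, 0, 2 and 3 fragments in daf-16;eak-7;akt-1 larvae, 1, 3, 4, 1 and 0 in eak-7;akt-1;daf-12, and 2, 1, 3, 2 and 1 in eak-7;akt-1 dpy-21. It had 2, 4, 1, 4 and 2 in larvae of set-4(n4600);eak-7;akt-1, then 1, 0, 1, 1 and 3 in larvae of set-4(dp268);eak-7;akt-1, against 1, 3, 2, 3 and 1 in eak-7;akt-1 and 0, 1, 0, 0 and 1 in wild type. Every eak-7;akt-1 library held flp-17, as did every library of eak-7;akt-1 dpy-21 larvae and set-4(n4600) larvae in the eak-7;akt-1 background, whereas 3 of 5 daf-16;eak-7;akt-1 libraries and 3 of 5 wild type libraries held none. The eak-7;akt-1 and wild type libraries still overlapped, at 1 fragment.

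The flp-17 level was 35.6 ± 10.7 CPM in eak-7;akt-1 larvae and 9.85 ± 13.5 in wild type (SD, n = 5 each). The ratio of pooled CPM was 5.27 (10 against 2 fragments), with an interval of 1.12 to 49.4. The 2-sided exact permutation test gave p = 0.0238, where the smallest p it can give is 0.00794. In the limma model flp-17 had a log2 fold change of 1.17 (SE 0.44) on the log2(scaled count + 1) scale, with an adjusted p of 0.197, and was not called. In the 26 libraries the counts were 8 fragments in 3 eak-7;akt-1 libraries and 0 in 3 wild type libraries, and limma gave a log2 fold change of 1.92 with an adjusted p of 0.0739. In daf-16;eak-7;akt-1 the log2 fold change of flp-17 against eak-7;akt-1 was -0.94 (SE 0.44, adjusted p = 0.413 by limma), with 5 against 10 fragments and a ratio of 0.448 (0.12 to 1.44). In the 26 libraries flp-17 had 2 fragments in 4 libraries of daf-16;eak-7;akt-1 (7.21 CPM on average), against 8 in 3 libraries of eak-7;akt-1 (42.8 CPM), and limma gave a log2 fold change of -1.55 with an adjusted p of 0.179.

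flp-20, a peptide gene of the touch receptor neurons, had 36 fragments in 22 libraries. flp-20, flp-18 and flp-11 were picked out after their values were seen. In replicates 6 to 10 flp-20 had 1, 2, 1, 2 and 2 fragments in eak-7;akt-1 and 0, 0, 0, 0 and 2 in wild type. All eak-7;akt-1 libraries thus held the gene, and 1 wild type library did, at a count that eak-7;akt-1 also reached. The level was 30.0 ± 8.11 CPM in eak-7;akt-1 larvae and 10.4 ± 23.2 in wild type (SD, n = 5 each), with a ratio of 4.21 (0.841 to 40.7; exact permutation p = 0.0476). The limma log2 fold change was 1.07 (SE 0.46, adjusted p = 0.278). In the 26 libraries flp-20 had 5 fragments in eak-7;akt-1 larvae and 0 in wild type, with 3 libraries each. The suppressor strains had 4 to 6 fragments of flp-20 each, below the 8 of eak-7;akt-1, and each of the 5 intervals of the ratio included 1.

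flp-18, whose peptides activate the receptors NPR-1, NPR-4 and NPR-5 and act in foraging and fat storage, was listed at 0 in all 5 eak-7;akt-1 libraries. In replicates 6 to 10 it had 1, 2, 0, 1 and 1 fragments in eak-7;akt-1 dpy-21 larvae. Thus 4 of 5 libraries held it. With the 0 of eak-7;akt-1 set at the floor, the pooled level in eak-7;akt-1 dpy-21 was 1.55-fold higher (5 against 0 fragments). The 5 was taken as counted, so 1.55 is not a lower limit. The exact permutation test gave p = 0.0476 for flp-18. By limma the log2 fold change was 0.88 (SE 0.34) with an adjusted p of 0.235. Wild type had 2, 0, 1, 1 and 0 fragments. Set at the floor, the pooled level of eak-7;akt-1 was 1.26-fold below wild type, again not a lower limit. The exact permutation test gave p = 0.167, and limma gave a log2 fold change of -0.70 with an adjusted p of 0.388. In the 26 libraries flp-18 had 3 fragments in eak-7;akt-1 dpy-21 larvae, 0 in eak-7;akt-1 larvae and 4 in wild type, with 3 libraries each. The other 4 suppressor strains had 1 or 2 fragments each, at or under the floor, so no fold is given for them.

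flp-11, which encodes the peptides of the RIS neuron that induce sleep, had the opposite pattern of zeros. It had 2, 1, 0, 1 and 0 fragments in eak-7;akt-1 and was listed at 0 in all 5 wild type libraries, in replicates 6 to 10. With wild type set at the floor, the pooled level was 1.40-fold higher in eak-7;akt-1. This is not a lower limit, since the count in eak-7;akt-1 was taken as it stood. The exact permutation test gave p = 0.167, and the limma log2 fold change of 0.79 had an adjusted p of 0.441. In the 26 libraries the counts of flp-11 were 2 in eak-7;akt-1 larvae and 0 in wild type. The 5 suppressor strains had 2 to 6 fragments of flp-11. Neither zero is a measured absence, since 0 fragments allowed up to 10.6 CPM of flp-11 in wild type and up to 11.2 of flp-18 in eak-7;akt-1.

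**Figure D2:**
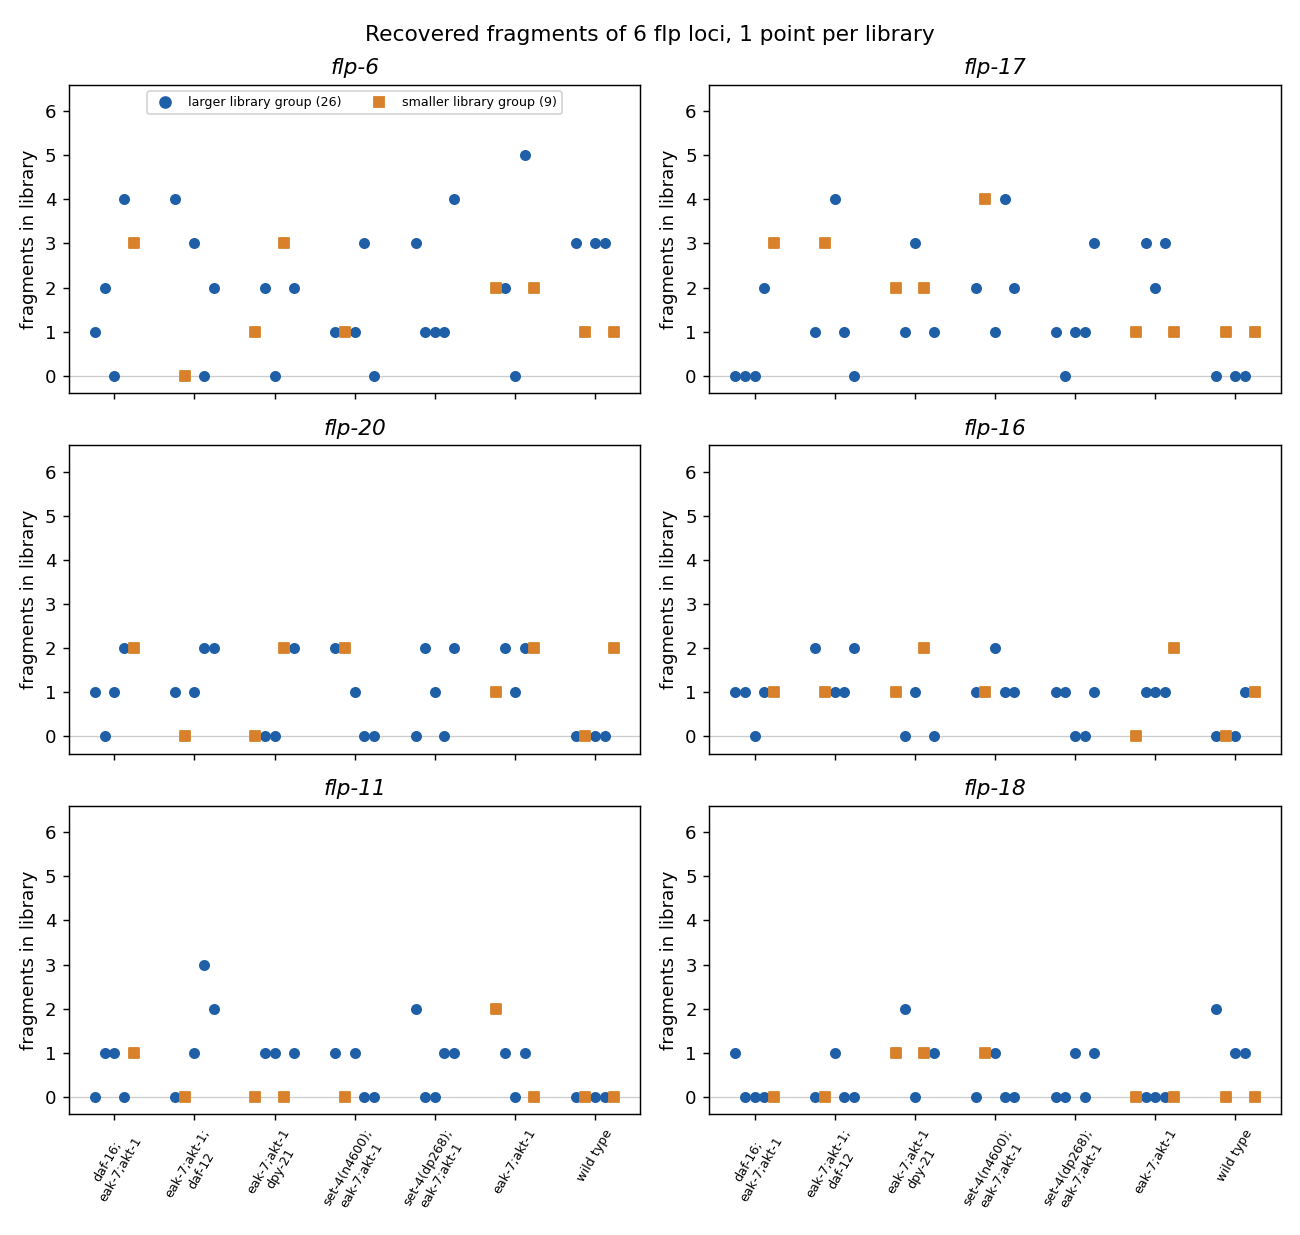
Recovered fragments (y axis) of flp-6, flp-17, flp-20, flp-16, flp-11 and flp-18 in each of 35 libraries, by genotype (x axis, replicates 6 to 10 from left to right), with circles for the 26 libraries and squares for the 9 that the first principal component divided. Counts run between 0 and 5, wild type has no flp-11, eak-7;akt-1 has no flp-18, and no genotype separates from another.

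flp-16 had 31 fragments in 26 libraries, with between 0 and 2 in each, and its sums were 3 to 7 in the suppressor strains, 5 in eak-7;akt-1 larvae and 2 in wild type. flp-7, which is released from the ASI neurons and promotes fat loss through the receptor NPR-22, had 27 fragments in 19 libraries, with sums of 2 to 6 in the suppressor strains, 4 in eak-7;akt-1 larvae and 2 in wild type. Of the 4 flp-7 fragments in eak-7;akt-1, 3 were in replicate 6, which is among the 9 libraries, and without it the sum is 1. flp-21, a ligand of NPR-1 in the control of social feeding, had 13 fragments in 11 libraries, and its sums were 1 to 4 in the suppressor strains and 2 each in eak-7;akt-1 and wild type. Every interval of a ratio of flp-16 or flp-7 included 1. The ratio of flp-21 in eak-7;akt-1 dpy-21 larvae to eak-7;akt-1 was 1.86 (0.267 to 20.6). In the 26 libraries flp-16 and flp-21 each had 1 fragment in eak-7;akt-1 dpy-21 larvae, against 4 each in all 5 libraries of that strain. flp-28 had 17 fragments, of which 4 were in replicate 6 of eak-7;akt-1 dpy-21, a library among the 9. It had 6 fragments in all libraries of eak-7;akt-1 dpy-21 against 2 in eak-7;akt-1. In the 26 libraries these counts were 2 and 2. flp-3 had 10 fragments, of which 4 were in larvae of set-4(n4600);eak-7;akt-1. flp-22 had 6 fragments, of which 3 were in daf-16;eak-7;akt-1.

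**Figure D3:**
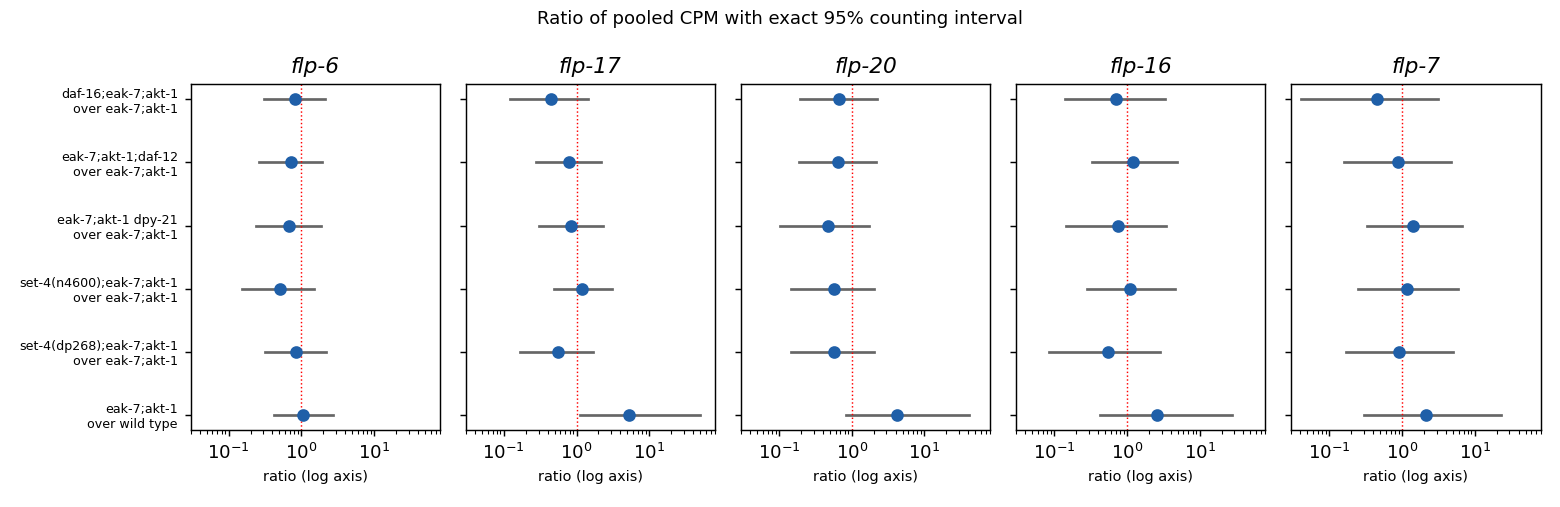
Ratio of pooled CPM (log axis, points) with exact 95% counting intervals (lines) for 5 flp loci in the 6 comparisons, each strain over its comparator. Of the 30 intervals only that of flp-17 in eak-7;akt-1 over wild type, 1.12 to 49.4, leaves out 1.

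Across the 12 loci no comparison gave a call in the limma model (fold change of 1.5 or more, adjusted p below 0.05). Against eak-7;akt-1, the background of called loci among the 4569 in that fit was 0.153% for larvae of set-4(dp268);eak-7;akt-1, then 0.0438% for larvae of set-4(n4600);eak-7;akt-1, then 2.1% in eak-7;akt-1 dpy-21 larvae, 2.41% in daf-16;eak-7;akt-1 larvae and 2.82% in eak-7;akt-1;daf-12 larvae. In eak-7;akt-1 against wild type it was 3.11%. Given such shares, 0 of 12 is near the background. At an unadjusted p under 0.05 the limma count was 6 of 72 tests, with 3 in eak-7;akt-1 against wild type (flp-17, flp-18, flp-20), where the background was 12.6%, 2 in daf-16;eak-7;akt-1 (flp-17, flp-22; background 11.3%) and 1 in eak-7;akt-1 dpy-21 (flp-18; background 11.9%). It was 0 in the other 3 strains, where the background was 10.7% (eak-7;akt-1;daf-12), 5.76% (set-4(n4600);eak-7;akt-1 larvae) and 6.35% (larvae of set-4(dp268);eak-7;akt-1). edgeR called 1 of 72, flp-26 in eak-7;akt-1 dpy-21 larvae (its background there was 1.69%), and had 6 at an unadjusted p under 0.05. Its backgrounds were 2.65% in the comparison of eak-7;akt-1 with wild type, 2.01% in eak-7;akt-1;daf-12 larvae and 1.99% in daf-16;eak-7;akt-1 larvae, and 0.0219% and 0.0438% for the n4600 and dp268 alleles of set-4. DESeq2 called 0, gave no adjusted p for 37 of the 72, and had 1 at an unadjusted p under 0.05, with backgrounds of 2.89% in the comparison of eak-7;akt-1 with wild type, 2.21% in eak-7;akt-1;daf-12 larvae, 2.34% both in daf-16;eak-7;akt-1 larvae and in eak-7;akt-1 dpy-21 larvae, then 0.0219% and 0.0875% for the n4600 and dp268 alleles. The limma test of any difference among the 7 genotypes called 0 of 12, against 5.21% of all loci in the fit, and its lowest adjusted p was 0.344, for flp-17. The same test by edgeR called 1, flp-26 (adjusted p = 0.000371; background 4.75%), and by DESeq2 it called 0 (background 6.17%), with no p for flp-26. Of the 72 exact permutation tests 3 were under 0.05. These were 2 of 12 in eak-7;akt-1 against wild type, where the share over all loci in the fit was 8.8%, and 1 of 12 in eak-7;akt-1 dpy-21 larvae (8.86%). The share was 8.16% in daf-16;eak-7;akt-1 larvae, 8.49% in eak-7;akt-1;daf-12 larvae, and 3.52% and 3.85% for the n4600 and dp268 alleles of set-4. No flp locus had groups that did not overlap. Over all loci in the fit such groups made up 1.55% in daf-16;eak-7;akt-1 larvae, 2.08% in eak-7;akt-1;daf-12 larvae and 1.82% in eak-7;akt-1 dpy-21 larvae, 0.328% and 0.525% for the n4600 and dp268 alleles, and 2.14% in the comparison of eak-7;akt-1 with wild type. The 5 comparisons with eak-7;akt-1 share its 5 libraries, as does the comparison with wild type, so a low or high value there enters all 6.

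The direction over the 12 loci, as a description, was near 0 in the fitted log2 fold changes. The median was -0.15 in daf-16;eak-7;akt-1 against -0.02 over all loci tested, and -0.01 in eak-7;akt-1 against wild type, where all loci had 0.05. In the other 4 comparisons the median of the 12 lay between -0.06 and -0.01, and that of all loci between -0.05 and 0.

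The sum over the family gives the level with the smallest counting error, and flp-26 was left out of it. Loci with fragments in fewer than 5 libraries were included in it. Without flp-26, summed flp CPM was 142 ± 48.6 in daf-16;eak-7;akt-1, 173 ± 58.8 in eak-7;akt-1;daf-12 and 202 ± 97.6 in eak-7;akt-1 dpy-21 (SD, n = 5 each). It was 163 ± 29.2 in larvae of set-4(n4600);eak-7;akt-1, then 135 ± 52.5 in larvae of set-4(dp268);eak-7;akt-1, against 191 ± 66.4 in eak-7;akt-1 larvae and 112 ± 30.9 in wild type. The lowest mean was that of wild type, whose libraries ran between 70.6 and 156 (median 116), and those of eak-7;akt-1 ran between 113 and 287 (median 200), so that these 2 groups overlapped. Values moved with the division of the libraries, with a median of 181 in the 9 and 146 in the 26, and the part of this division in the sums was not tested. Within the 26 the mean was 126 in daf-16;eak-7;akt-1 larvae and 177 in eak-7;akt-1;daf-12 larvae, with 4 libraries each, and 143 in 3 libraries of eak-7;akt-1 dpy-21 larvae, which no longer had the highest mean and lay below eak-7;akt-1. It was 159 in 4 libraries of set-4(n4600);eak-7;akt-1, then 135 in 5 libraries of set-4(dp268);eak-7;akt-1, against 174 in eak-7;akt-1 larvae and 95.6 in wild type, with 3 libraries each. Of the family's fragments without flp-26, X-linked members had 25 of 52 in eak-7;akt-1 dpy-21, against 19 of 50 in eak-7;akt-1. The same count was 14 of 42 in daf-16;eak-7;akt-1 larvae, 21 of 52 in eak-7;akt-1;daf-12 larvae, 19 of 47 in larvae of set-4(n4600);eak-7;akt-1, 18 of 40 in larvae of set-4(dp268);eak-7;akt-1, with 13 of 30 in wild type. No p is given for these sums, since the members were chosen with earlier results known.

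**Figure D4:**
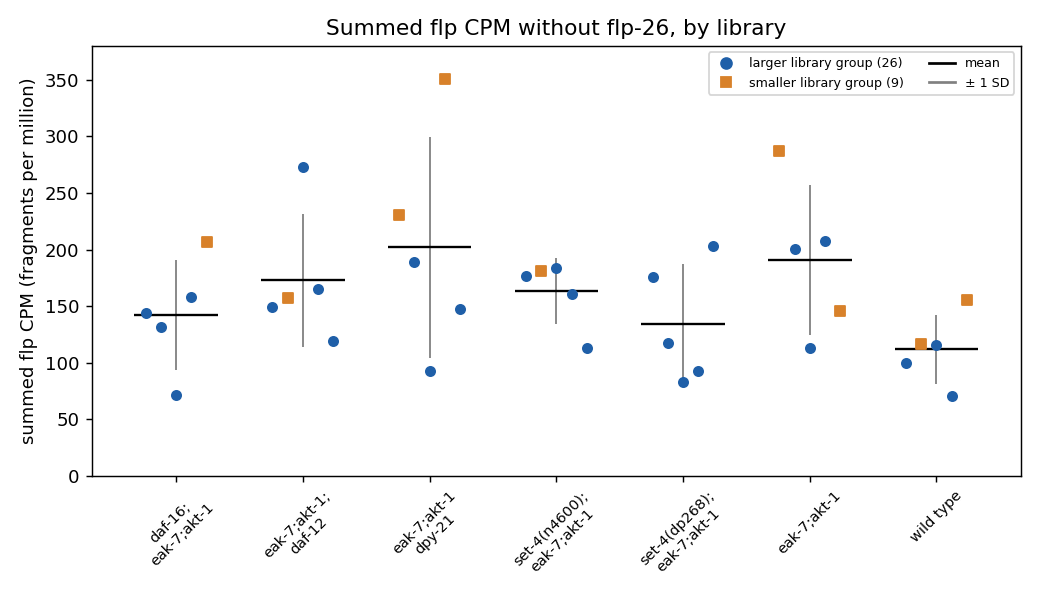
Summed flp CPM without flp-26 (y axis) in each library by genotype (x axis), with the mean (black line) and 1 SD either way (grey line), circles for the 26 libraries and squares for the 9. Over all libraries the mean is highest in eak-7;akt-1 dpy-21, 202 (143 in the circles alone), and lowest in wild type, 112 (95.6), and every genotype overlaps its comparator.

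flp-26 differed from the rest of the family. It had 140 fragments in replicate 10 of eak-7;akt-1 dpy-21 and 0 in replicates 6 to 9 of that strain. In the other 30 libraries it had 1 fragment in each of 4 libraries, namely replicate 6 of daf-16;eak-7;akt-1, replicate 7 of eak-7;akt-1 and replicates 6 and 9 of wild type. Replicate 10 of eak-7;akt-1 dpy-21 had the most recovered fragments (88068), and flp-26 stood at 1590 CPM in it, the locus of rank 84. The 3 loci listed on either side of flp-26 had 0 fragments in all libraries. Of the 147 loci that reached 100 fragments in some library, 3 did so in only 1 library with at most 3 fragments in every other, and they were counted after the values had been seen. They were flp-26 and F53A9.8 (135 fragments), both in replicate 10 of eak-7;akt-1 dpy-21, and tts-1 (129 fragments) in replicate 9 of eak-7;akt-1. By edgeR flp-26 had a log2 fold change of 6.06 in eak-7;akt-1 dpy-21 against eak-7;akt-1 with an adjusted p of 0.0282. By limma the log2 fold change was 1.10 (SE 0.65) with an adjusted p of 0.545, and without replicate 10 it was -0.26. The difference therefore rests on that library.

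**Figure D5:**
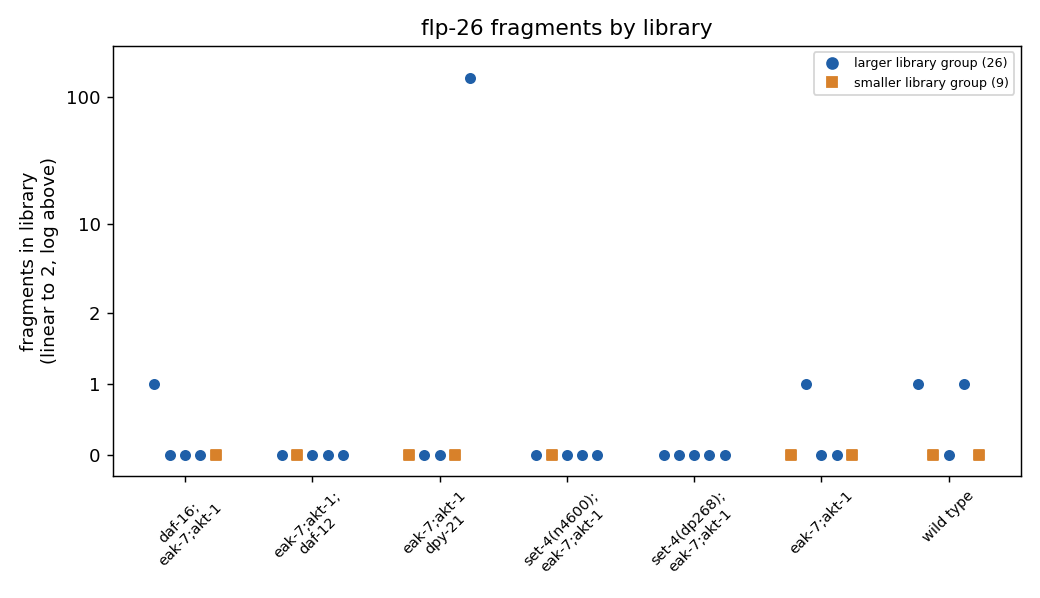
Fragments of flp-26 in each library (y axis, linear up to 2 and logarithmic above) by genotype (x axis, replicates 6 to 10 from left to right), with circles for the 26 libraries and squares for the 9. A single library of eak-7;akt-1 dpy-21 holds 140 fragments and every other library holds 0 or 1.

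The genes that make, store, cut and receive these peptides also had few fragments. Of 9 loci of peptide processing, 5 were above 0 in at least 5 libraries, among them egl-3, a proprotein convertase (8 fragments), and pamn-1, an amidating enzyme (23 fragments), while the carboxypeptidase gene egl-21 had 2 fragments. Of 7 loci of dense core vesicle genes 3 were, among them the locus of ida-1 (15 fragments). The neprilysin gene nep-1, for a peptide-degrading enzyme, had 17 fragments. Of 14 loci of receptors 2 were, npr-4 (5 fragments) and the locus of npr-5 (54 fragments), and egl-6, npr-1 and frpr-18, receptors for FLP peptides, were listed at 0. None of these loci was called in any of the 6 comparisons by limma, against the backgrounds given above. The processing locus of aex-5 (18 fragments) also holds unc-54 and is counted again among the muscle markers.

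The neuron marker loci showed no call either. Of 20 neuron marker loci 11 were above 0 in at least 5 libraries, and 0 of the 11 were called in any comparison. The summed level of all 20 loci ran between 154 and 396 CPM in eak-7;akt-1 (median 316) and between 182 and 329 in wild type (median 233). Among the defining markers rab-3, of synaptic vesicles, had 7 fragments and the pan-neuronal rgef-1 was at 0. The neuron marker loci with the most fragments were those of snb-1 (195), unc-104 (109), ric-4 (94) and unc-11 (70). Except for that of ric-4 these loci also hold other genes, so the sum does not stand for neuronal RNA as a whole. Some marker loci of the hypodermis, the epidermis that makes the cuticle, did change. Of 4 measured hypodermal loci 3 were higher in daf-16;eak-7;akt-1, 3 in eak-7;akt-1;daf-12 and 1 in eak-7;akt-1 dpy-21, all against eak-7;akt-1, and 3 were lower in eak-7;akt-1 than in wild type. The sum over all 9 hypodermal loci had a median of 57.4 CPM in eak-7;akt-1 (15.4 to 83.4) and 1029 in wild type (932 to 1585). The part of these loci in the flp values was not tested. Over all libraries dpy-5 had 1041 fragments, the sqt-3 locus 115, rol-6 76 and dpy-10 54, so this sum rests mainly on dpy-5. The limma backgrounds for these calls were those given above. Muscle markers (9 of 10 measured) and germline markers (3 of 5) had 0 calls, and intestine markers (7 of 9) had 1 lower in eak-7;akt-1;daf-12.

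The nlp and insulin-like peptide families were measured at higher counts in the same libraries. Of 41 nlp loci, which encode neuropeptide-like proteins without the FMRFamide motif, 26 were above 0 in at least 5 libraries and 12 passed the main filter. Of 38 insulin-like loci 17 and 5 did. In eak-7;akt-1 against wild type, limma called 1 nlp locus higher and 2 lower, and 1 insulin-like locus higher and 1 lower. Against eak-7;akt-1 it called 2 nlp loci higher and 1 lower in daf-16;eak-7;akt-1, 2 higher and 3 lower in eak-7;akt-1;daf-12, then 1 higher and 2 lower among larvae of eak-7;akt-1 dpy-21, with 0 in the set-4 strains and no other insulin-like call. Over all loci in the fit, the called share was 3.11% for the comparison with wild type. It was 2.41% in the daf-16 strain, 2.82% in the daf-12 strain and 2.1% in the dpy-21 strain. Some called loci also hold other genes, such as grsp-1 with nlp-26, nep-16 with nlp-20, T19C4.1 with nlp-33 and ubc-22 with ins-9. Which tissue these calls came from was not tested. nlp-25 was called higher in eak-7;akt-1;daf-12 than in eak-7;akt-1 (log2 fold change 1.90, limma adjusted p = 1.79e-05) and lower in eak-7;akt-1 than in wild type (-2.14, limma adjusted p = 2.23e-06). It was also called higher in the daf-16 strain (2.095, limma adjusted p = 4.94e-06) and the dpy-21 strain (1.44, limma adjusted p = 0.00229). The locus of nlp-27 and nlp-28 went the other way, at -2.05 in eak-7;akt-1;daf-12 against eak-7;akt-1 (limma adjusted p = 1.31e-05) and 1.34 in eak-7;akt-1 against wild type (limma adjusted p = 0.00522). That locus was also called lower in the daf-16 strain (-1.97, limma adjusted p = 3.47e-05) and the dpy-21 strain (-1.81, limma adjusted p = 0.000166).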

How the data were processed

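Whole larvae were profiled by paired-end polyA RNA-seq in 35 libraries. The deposited values are a signal, the fragments that CuffDiff assigned to a locus over the size factor of the library. The submitters' processing notes name TopHat2 2.0.9, Bowtie2 2.1.0, Cuffdiff 2.1.1 and WBcel235. The step between values gave whole fragments, and at least 99.82% of values in each library were whole within 0.01 of a step. The members, gene lists and tests were chosen with earlier results of these data known. Values for members were given in every library for the 3 flp loci with the highest mean scaled count (flp-26, flp-6, flp-17) and any called.

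Differences were tested with limma 3.58.1 (R 4.3.3) on log2(scaled count + 1) over all 35 libraries, with Benjamini-Hochberg adjustment over all loci tested. No flp locus reached 5 scaled counts in 5 libraries (1101 loci did), so tests come from a second fit over the 4569 loci above 0 in at least 5 libraries. edgeR 4.0.16 and DESeq2 1.42.0 were run on recovered fragments as alternatives. The pooled ratios, their exact intervals and the 72 exact permutation tests (scipy 1.17.1, numpy 2.4.6, pandas 2.3.3, Python 3.11.15) were added after the counts had been seen. Lengths and positions came from the WBcel235 annotation. No sequence is printed.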

Additional observations from a re-analysis of the deposited data

Results flagged for a closer look

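Among the 15 groups of 5 libraries that were checked (genotypes in which a member had a library above 3 fragments, and the family sums, a choice made after the values were seen), 2 had a library far from the others. Chance gives about 1 in 20 where groups are not picked for their values, but 8 of the 15, both of these included, were picked for a library above 3 fragments, so that this rate and the critical value do not apply to them and the gaps are a description. flp-26 in eak-7;akt-1 dpy-21 had 93.7 scaled counts in replicate 10 and 0 in the other libraries of that strain. flp-28 in eak-7;akt-1 dpy-21 had 4.40 scaled counts in replicate 6, with a gap of 0.803 of the range to the nearest other library, against a critical value of 0.71. What lies behind either value was not tested.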

How the results depend on the processing

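With the main filter of 5 scaled counts, and with 10, no flp locus was tested, so the other planned choices could give no count there and were applied to the second fit after the data had been seen. In that fit limma called 0 of the 12 loci under a pseudocount of 0.5, median-of-ratios rescaling, the 2 genotypes compared alone, the 26 libraries alone, no minimum fold change and leaving out each replicate number (0 to 0). DESeq2 called 0 of the tests for which it gave an adjusted p, and edgeR called 1, flp-26 in eak-7;akt-1 dpy-21 (log2 fold change 6.06), which its test of any difference among genotypes also called. The replicate block called 0. No pairing by replicate number was clear, since 13 of 30 same-numbered pairs with eak-7;akt-1 had correlations of deviations above 0.1. These correlations ran between -0.583 and 0.706, and 10 of 35 libraries correlated best with their own number. The mean correlation was 0.0514 for libraries of the same number and -0.000133 for others. This does not show that same-numbered libraries were prepared apart.

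Fold changes of the 3 members named by rule changed sign in places, and none of these was called. For flp-6, values without 1 replicate number ran between -1.06 and 0.080 in eak-7;akt-1;daf-12, between -0.22 and 0.40 in larvae of set-4(dp268);eak-7;akt-1, between -0.27 and 0.43 in eak-7;akt-1 against wild type. In set-4(dp268) larvae the flp-6 value was 0.033 by limma, -0.037 by edgeR and -0.10 by DESeq2. For flp-17 they ran between -0.38 and 0.012 in eak-7;akt-1 dpy-21, and the 26 libraries gave -0.26 in larvae of set-4(n4600);eak-7;akt-1. For flp-26 they ran between -0.26 and 0.32 in daf-16;eak-7;akt-1 (-0.036 in the 26 libraries), between -0.26 and 1.64 in eak-7;akt-1 dpy-21, and between -0.47 and 0.046 in eak-7;akt-1 against wild type. The causes were not tested. At this depth no member other than flp-26 had more than 5 fragments in a library.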
